A study of Homo sapiens with 6 samples.

Results

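Metallothioneins are small cysteine-rich proteins that hold zinc, copper and cadmium in clusters of metal and thiolate. Their messenger RNAs were read in SH-SY5Y, a cell line derived from a human neuroblastoma, on 3 arrays of cultures given 100 µM manganese for 24 h and 3 arrays of untreated cultures. The labels put that dose at the median lethal concentration divided by 5, and both groups were grown in a mixture of MEM and F12 supplemented with fetal bovine serum at 10%. The arrays of a group are labelled biological replicates. The labels do not say whether the cultures were started apart, so p-values measure the spread between these samples. The genes were MT1A, MT1B, MT1E, MT1F, MT1G, MT1H, MT1M, MT1X, MT2A and MT3, and every probe set whose annotation names 1 of them and no other gene was taken. That gave 16 of 49293 probe sets, which read 9 of the 10 genes. MT1A was not analysed here.

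In most tissues MT2A and the MT1 genes are switched on together by zinc or cadmium. The zinc-sensing transcription factor MTF1 does so by binding metal response elements in their promoters. MT3 was first isolated from brain as growth inhibitory factor, is enriched in neurons, and is generally described as less responsive to metals than the MT1 and MT2 genes. In the RefSeq gene table the protein-coding members lie side by side on chromosome 16 in the order MT4, MT3, MT2A, MT1E, MT1M, MT1A, MT1B, MT1F, MT1G, MT1H and MT1X.

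Promoters of 4 of the 10 genes were matched in the RefSeq table, those of MT2A, MT1X, MT1H and MT1B. The 250 bases before the annotated start were searched on both strands for the metal response element core, spelled TGCACNC or TGCGCNC. MT2A held 7 matches, MT1X 4, MT1H 8 and MT1B 3, and no matches overlapped each other. Of all 35116 promoters in the table, 24.8% held at least 1 match, 1.58% held 3 or more and 0.37% held 4 or more. The 4 metallothionein promoters had a GC content of 62.4 to 73.2%, against a median of 58% over all promoters. The shares over all promoters were not matched for GC content. The MT2A and MT1X promoters are shown because each gene was read by 2 probe sets above the level filter. Capitals mark the matches, those on the other strand included.
MT2A (GRCh38.p14, chr16:56608334-56608583, plus strand): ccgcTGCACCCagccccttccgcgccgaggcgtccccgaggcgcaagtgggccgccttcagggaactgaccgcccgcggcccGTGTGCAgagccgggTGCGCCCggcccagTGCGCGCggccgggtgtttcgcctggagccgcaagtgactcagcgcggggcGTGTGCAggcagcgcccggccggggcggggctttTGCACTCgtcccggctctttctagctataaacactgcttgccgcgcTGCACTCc
MT1X (GRCh38.p14, chr16:56682220-56682469, plus strand): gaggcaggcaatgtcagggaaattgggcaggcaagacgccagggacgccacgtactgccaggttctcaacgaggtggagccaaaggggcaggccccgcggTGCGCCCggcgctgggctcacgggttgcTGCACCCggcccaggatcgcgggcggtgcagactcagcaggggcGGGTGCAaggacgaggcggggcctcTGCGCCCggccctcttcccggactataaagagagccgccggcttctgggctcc

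A match on the gene's own strand began 53 bases before the start in MT1X, MT1H and MT1B, and 54 bases before it in MT2A. On the other strand a match began 78 bases before the start in MT1X and MT1H, 79 in MT1B and 88 in MT2A. The hypoxia response element core, ACGTG or GCGTG, had 1 match in MT2A and 1 in MT1X, against 43.2% of all promoters with at least 1. The MT2A match overlapped a metal response element. The antioxidant response element core TGACNNNGC had 1 match in each of MT2A, MT1X and MT1B, against 10.9% of all promoters. MT1H held 8 metal response elements and no match to either of the other cores. A match describes letters and is not a measured binding site.

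**Figure D1:**
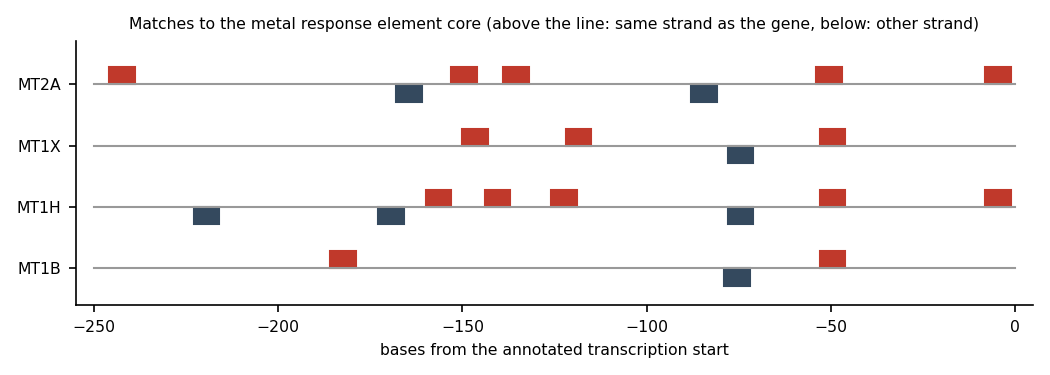
Matches to the metal response element core in the 250 bases before the start of MT2A, MT1X, MT1H and MT1B, with distance from the start in bases on the x axis. Boxes above a line lie on the gene's strand and boxes below it on the other strand. All 4 genes have a box on their own strand beginning 53 or 54 bases before the start.

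The values are log2 RMA signals, a summary of the probes of a probe set after background subtraction and after all arrays are set to 1 distribution. Testing was limited to probe sets that exceeded an array's 40th percentile, between 4.37 and 4.40, on at least 3 of the 6 arrays. That kept 29871 probe sets, 13 of them metallothionein probe sets of 8 genes. Both MT1M probe sets and 1 of the 3 MT1G probe sets lay below that level on all 6 arrays. The 23 background probe sets, which differ in their GC content, read from between 2.19 and 2.29 at the lowest to between 10.23 and 10.54 at the highest on each array. Signals of different probe sets are therefore not set against each other, and a gene is compared only with itself between groups.

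The endings of the probe set names say which transcripts share the probes. Of the 16 metallothionein probe sets, 9 end in _x_at, where some probes are near-identical to sequences of other genes, against 16.0% of all probe sets on the array. Another 2 end in _s_at, where all probes are shared among transcripts, 2 end in _a_at, where probes are shared among transcripts of 1 gene, and 3 end in _at with no such mark. The members with shared probes are not independent readings, and an _x_at or _s_at signal can hold RNA of another family member.

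The 6 arrays were not alike in their controls. Poly(A) control RNA, read by 12 probe sets, averaged 7.80 to 7.91 in the manganese arrays, 6.14 in control 1, 7.79 in control 2 and 5.81 in control 3. Over the tested probe sets control 1 correlated with the other arrays at r between 0.967 and 0.980, while all other pairs lay between 0.984 and 0.995 (Pearson, across probe sets, which are not replicates). A fit against control 2 alone has 1 control array, so its spread comes from the manganese arrays alone. Noradrenergic markers read above the level filter on the arrays of both groups, which does not by itself show that they are expressed. PHOX2A, a transcription factor that sets noradrenergic identity, averaged 11.77 ± 0.05 in manganese arrays and 11.55 ± 0.22 in control arrays (SD, n = 3 each), a difference of 0.22, or 0.01 against control 2 alone. All 12 measured noradrenergic markers passed the level filter, and the mean over them lay between 10.30 and 10.36 in manganese arrays and between 10.38 and 10.47 in control arrays. Of these 12 markers 0 passed limma's test, 9 had negative differences and the median was -0.10. Those at an unadjusted p under 0.05 were 3 of the 12, against 13.1% of all 13407 genes with a tested probe set. They were STMN2, a neuronal microtubule regulator, at -0.71, ISL1, a transcription factor, at -0.58, and SLC18A1, a vesicular monoamine transporter, at 0.52. They were at -0.27, -0.26 and 0.42 against control 2 alone. The part of these markers in the metallothionein results was not tested. Of the 6 measured astrocyte and Schwann cell markers above the filter 0 passed limma's test and 0 reached an unadjusted p under 0.05, and AQP4 lay below the filter. The mean over the 6 was 5.31 to 5.51 in manganese arrays and 5.33 to 5.51 in control arrays. Of 10 mesenchymal markers COL3A1, LUM and CD44 lay below the filter. The mean over the other 7 was 6.21 to 6.29 in manganese arrays and 6.22 to 6.50 in control arrays. That mean does not describe each marker. TWIST1 averaged 12.02 in manganese arrays and 12.005 in control arrays, while group means of the rest lay between 4.48 for DCN and 6.27 for FN1. Signals of different probe sets are not compared here, so these levels do not show which mesenchymal markers were expressed in either group.

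MT3 was higher in manganese-exposed cells at both of its probe sets, and no other metallothionein passed the test. In these bulk samples more cells that express a gene and more RNA of it per cell cannot be told apart. Over all tested probe sets limma called 0.104% higher and 0.00335% lower at an adjusted p under 0.05, and 2 of the 13 metallothionein probe sets were called, both of MT3. At an unadjusted p under 0.05 there were 3 of the 13, against 12.5% of all tested probe sets. The 11 other tested probe sets had log2 fold changes between -0.43 and 0.16, 6 of them negative. Their median was -0.01, against 0.01 over all 29871 probe sets. Against control 2 alone 9 of these 11 were negative, with a median of -0.12.

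The probe set 11722608_at reads MT3 and carries no mark of sharing. It stood at 7.19, 7.04 and 7.30 in the manganese arrays, against 5.63, 6.15 and 5.62 in controls 1, 2 and 3. The groups did not overlap, and control 2 was the highest control. The log2 fold change was 1.38 (95% interval 1.00 to 1.75, SE 0.16), a 2.60-fold increase, with a limma adjusted p of 0.0311. Against control 2 alone, whose poly(A) control level was close to that of the manganese arrays, it was 1.03 with an adjusted p of 0.274. The part of the difference in poly(A) controls in this result was not tested.

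The other MT3 probe set, 11753872_x_at, holds probes that other genes may share. It read 8.36, 8.35 and 8.00 in manganese arrays and 6.20, 6.49 and 6.77 in controls 1, 2 and 3. Here too every manganese array lay above every control, and the controls followed another order than at the unmarked probe set. The log2 fold change was 1.75 (1.36 to 2.14, SE 0.17), a 3.36-fold increase with a limma adjusted p of 0.0119. Against control 2 alone it was 1.75 with an adjusted p of 0.0873. Among the 29871 probe sets it ranked 13 by size of increase and 15 by p, and the unmarked probe set ranked 26 by both.

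Leaving out 1 array kept the increase of the unmarked MT3 probe set between 1.29 and 1.55 and that of the _x_at probe set between 1.61 and 1.89. The call at the unmarked probe set was lost without any 1 array other than control 2, at adjusted p from 0.0529 to 0.244. That at the _x_at probe set was lost without manganese 1, at an adjusted p of 0.1, and without manganese 2, at 0.106.

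**Figure D2:**
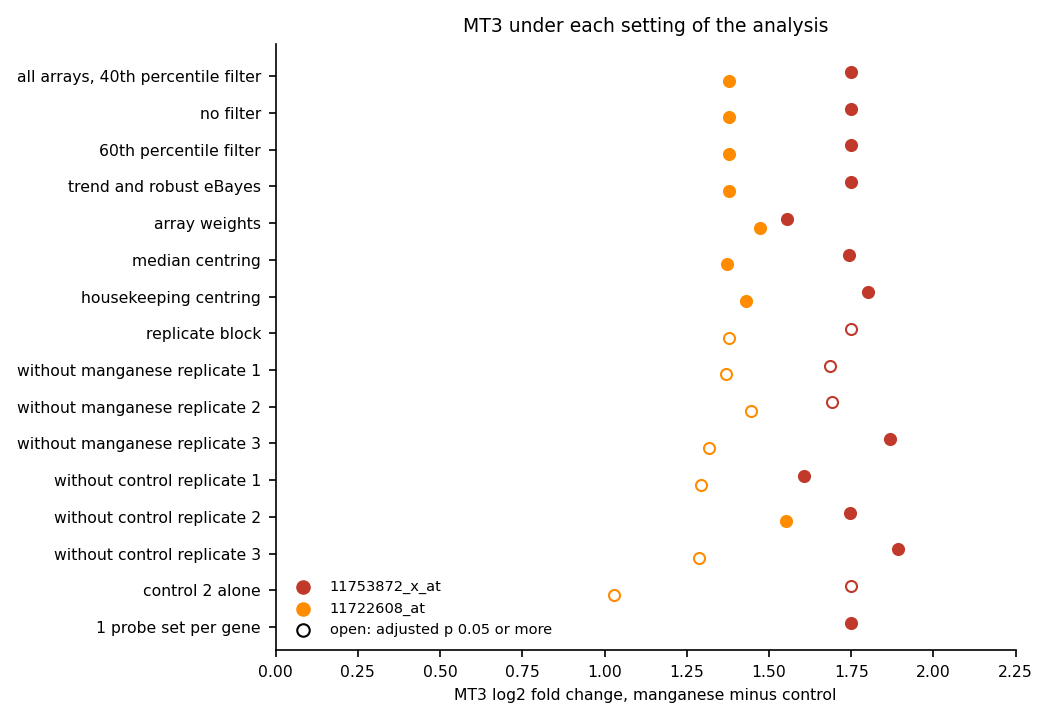
Log2 fold change of MT3, manganese minus control, at its 2 probe sets (colours) under each setting of the analysis, with filled points for an adjusted p under 0.05 and open points for others. All values are above 0, from 1.03 at 11722608_at against control 2 alone to 1.89 at 11753872_x_at without control 3.

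MT2A, the member that most tissues make in quantity, showed no difference past the threshold. Its probe set 11753900_x_at read 11.39, 11.49 and 11.53 in manganese arrays, against 11.25, 11.47 and 11.55 in controls 1, 2 and 3. The groups overlapped, with control 1 the lowest array. The difference was 0.05 on the log2 scale (-0.22 to 0.32, limma adjusted p 0.899), and the interval spans a manganese to control ratio of 0.856 to 1.25. Its other probe set, 11758729_x_at, read 8.20, 8.17 and 8.14 in manganese arrays, against 7.81, 8.19 and 8.10 in the controls. The groups overlapped again, with control 1 apart from the other 5 arrays. The difference was 0.14 (-0.15 to 0.43, adjusted p 0.668). Against control 2 alone the differences were -0.0025 and -0.014.

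MT1F and MT1X had the most negative differences among the tested MT1 genes, without passing the test. MT1F at 11721877_s_at read 7.54, 7.57 and 7.30 in manganese arrays, against 7.53, 8.13 and 8.03 in controls 1, 2 and 3. Control 1 stood among the manganese arrays, and the other controls lay above all of them. The log2 fold change was -0.43 (-0.82 to -0.04, SE 0.17) with an unadjusted p of 0.0362 and a limma adjusted p of 0.372. Without control 1 it was -0.61 with an adjusted p of 0.133, and against control 2 alone it was -0.66 with an adjusted p of 0.488. Its other probe set, 11721878_x_at, read 6.64, 6.50 and 6.50 in manganese arrays, against 6.50, 6.87 and 6.88 in the controls. The order of the arrays was similar, with a difference of -0.20 (-0.51 to 0.10, adjusted p 0.556), or -0.33 without control 1 and -0.33 against control 2 alone.

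MT1X at 11757581_x_at read 8.88, 9.00 and 8.92 in manganese arrays and 8.88, 9.35 and 9.26 in controls 1, 2 and 3. As with MT1F, control 1 read like the manganese arrays. The log2 fold change was -0.23 (-0.56 to 0.09) with an adjusted p of 0.523. It was -0.38 without control 1 (adjusted p 0.186) and -0.42 against control 2 alone. At 11726385_a_at, whose probes are marked for MT1X alone, the arrays read 8.02, 8.08 and 7.85 with manganese, against 7.79, 8.20 and 8.25 in the controls. The log2 fold change there was -0.10 (-0.44 to 0.24, adjusted p 0.811), -0.24 without control 1 (adjusted p 0.382) and -0.22 against control 2 alone.

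Control 1 was the lowest control at all 14 probe sets of the 8 measured genes other than MT3. Over all tested probe sets that share was 46.4%, and the 14 partly share probes. With control 1 left out, every manganese array lay below both other controls at 5 of the 14 probe sets, those of MT1F and MT1X and the MT1G probe set below the filter. That compares with 13.5% of all 49293 probe sets. This pattern was looked for after the values had been seen. The MT1G probe set was not in the test, and those of MT1F and MT1X did not pass it. Both MT1F probe sets and MT1X 11757581_x_at passed only with array weights, where 5364 of all 29871 probe sets did.

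The remaining MT1 genes did not pass the test. MT1E at 11716413_x_at averaged 5.54 ± 0.07 in manganese arrays and 5.51 ± 0.05 in control arrays (SD, n = 3 each), a difference of 0.03 (-0.21 to 0.26), or -0.01 against control 2 alone. MT1B at 11730028_at averaged 5.72 ± 0.11 in manganese arrays and 5.63 ± 0.09 in control arrays, a difference of 0.09 (-0.16 to 0.34), or 0.07 against control 2 alone. The groups overlapped for both genes. MT1G at 11717385_a_at averaged 6.56 ± 0.04 in manganese arrays and 6.60 ± 0.08 in control arrays, a difference of -0.04 (-0.27 to 0.19), or -0.08 without control 1 and -0.12 against control 2 alone. At 11717387_x_at it averaged 6.14 ± 0.07 in manganese arrays and 6.15 ± 0.17 in control arrays, a difference of -0.01 (-0.29 to 0.26), or -0.10 without control 1 and -0.18 against control 2 alone. The MT1G probe set below the filter, 11717386_s_at, stood at 2.70 ± 0.03 in manganese arrays and 2.84 ± 0.14 in control arrays.

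MT1H was the only metallothionein gene besides MT3 whose groups did not overlap. It read 5.36, 5.40 and 5.32 in manganese arrays and 5.09, 5.23 and 5.30 in controls 1, 2 and 3 at 11731857_x_at. The gap between the nearest arrays was small, and the difference of 0.16 (-0.09 to 0.40) had a limma adjusted p of 0.569. The difference was 0.10 without control 1 and 0.13 against control 2 alone. MT1H and MT3 together made 3 of the 16 probe sets with non-overlapping groups, near the 16.5% of all 49293 probe sets. MT1M, below the filter, averaged 2.96 ± 0.05 in manganese arrays and 2.96 ± 0.09 in control arrays at 11728397_at. At 11728398_x_at it averaged 3.73 ± 0.10 in manganese arrays and 3.65 ± 0.08 in control arrays.

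**Figure D3:**
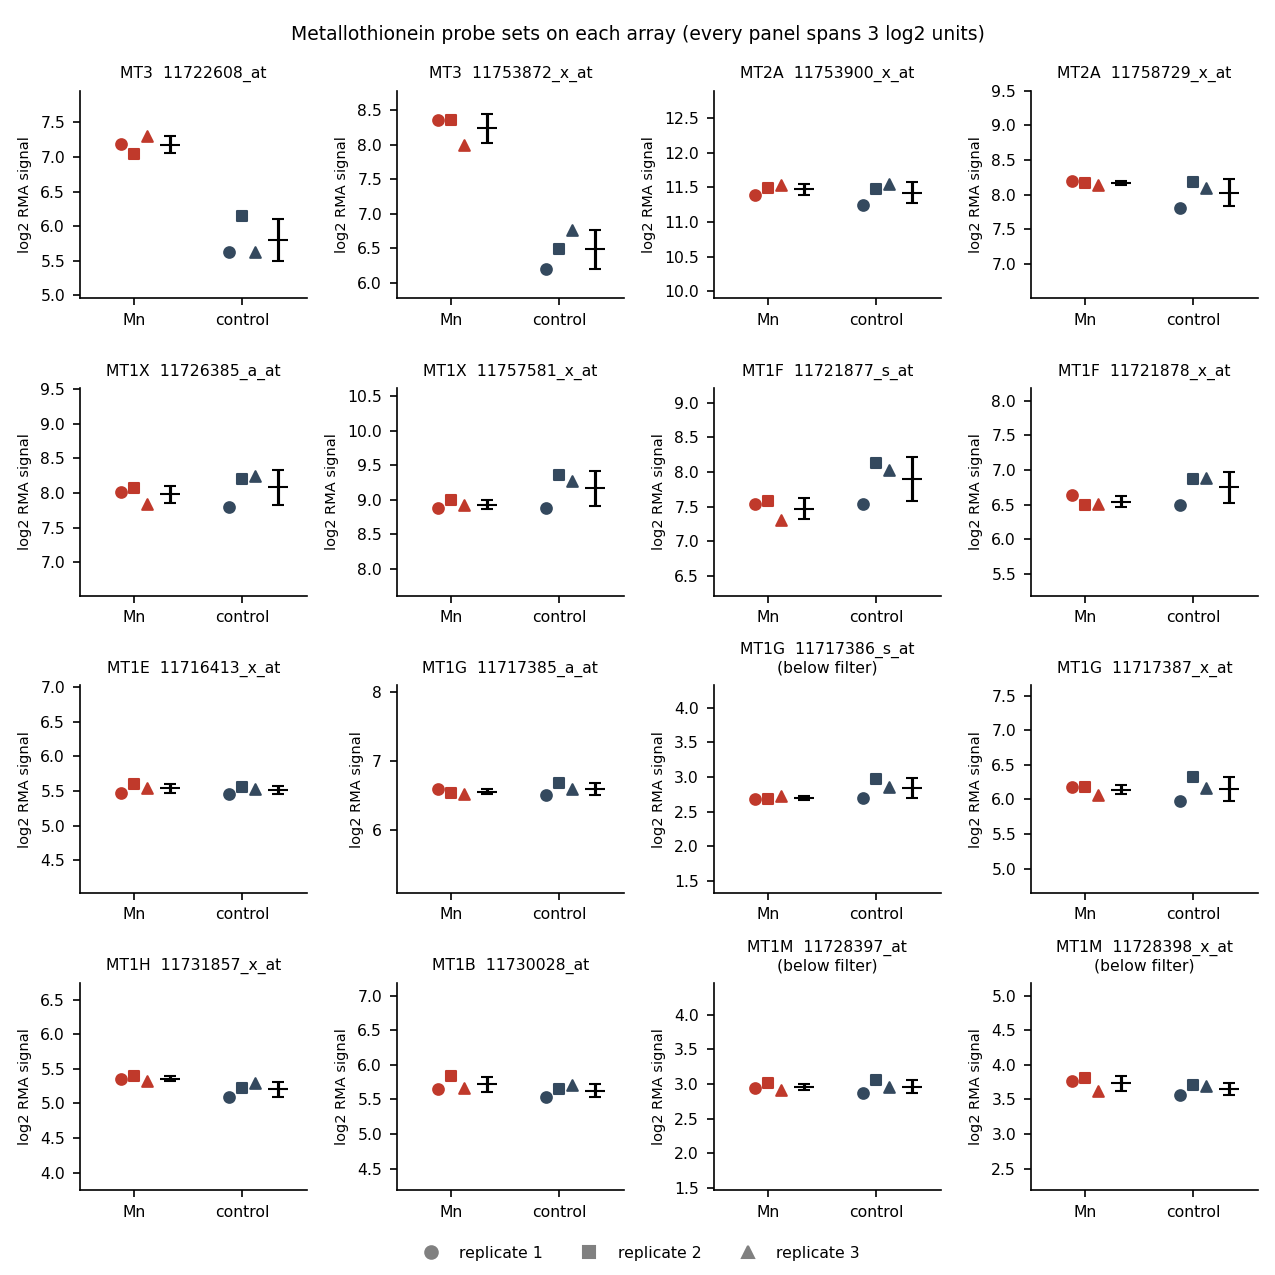
Log2 RMA signal (y axis) of each of the 16 metallothionein probe sets on the 3 manganese arrays (left) and 3 control arrays (right), with the replicate given by the marker and the mean ± SD beside the points. Each panel spans the same range of log2 units, and the 2 MT3 panels are those with a wide gap between the groups.

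**Figure D4:**
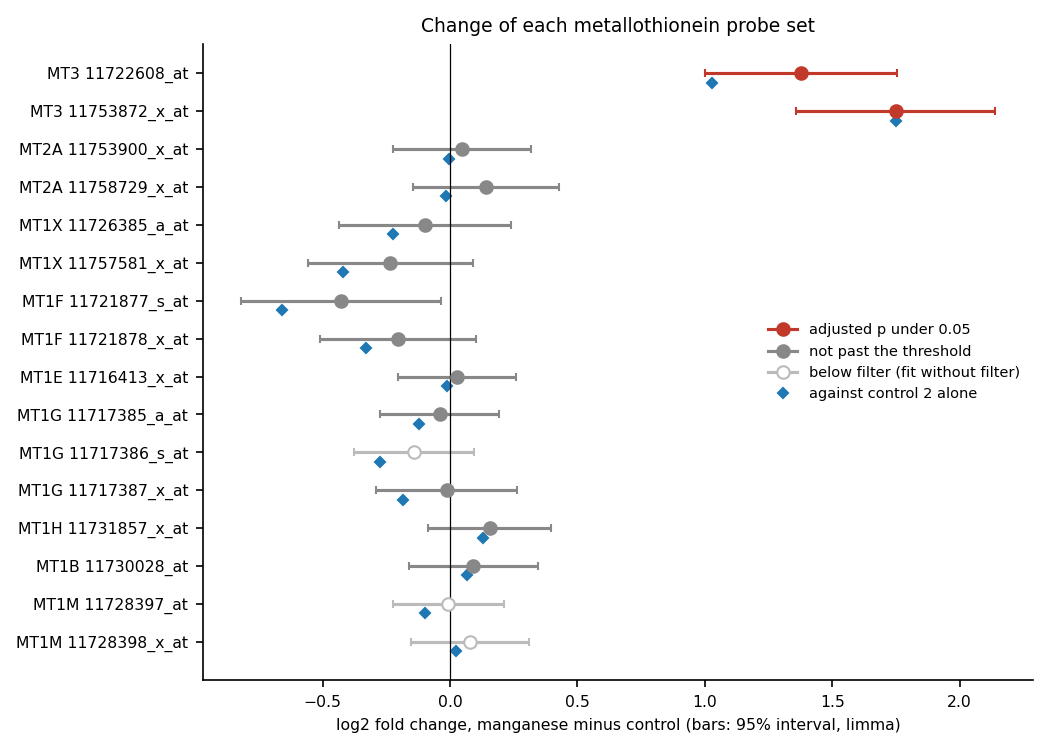
Log2 fold change, manganese minus control, of each metallothionein probe set with its 95% interval from limma, and the value against control 2 alone as a diamond. Probe sets below the filter come from the fit without it. The MT3 intervals begin at 1.00 and 1.36, and all other intervals lie below 0.43.

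Another 10 probe sets read MT4, the pseudogenes MT1DP, MT1IP and MT1JP, or several family members at once. MT4 is known from stratified squamous epithelium, and its probe set lay below the filter on all 6 arrays. Of the 10, 4 passed the filter and 0 passed limma's test. Their differences ran from -0.12 to 0.13, with unadjusted p of 0.269 or more.

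Genes near the cluster gave no call. NUDT21, OGFOD1 and BBS2 lie before MT4, and NUP93, SLC12A3, HERPUD1 and CETP lie after MT1X. SLC12A3 and CETP lay below the filter. BBS2, a subunit of the complex that carries proteins to cilia, differed by 0.38 (-0.07 to 0.82, adjusted p 0.459). NUP93, a nuclear pore protein, differed by -0.23 (-0.50 to 0.04, adjusted p 0.459). NUDT21, a cleavage factor for mRNA 3' ends, differed by 0.27, HERPUD1, an endoplasmic reticulum stress protein, by -0.07, and OGFOD1 by -0.01. Probe sets of NUDT21 ranged from -0.33 to 0.27, those of HERPUD1 from -0.07 to 0.18 and those of OGFOD1 from -0.21 to -0.01. BBS2 was at 0.42, NUDT21 at 0.39, HERPUD1 at 0.08, OGFOD1 at 0.18 and NUP93 at -0.13 against control 2 alone. Of the 5 tested neighbours 0 passed limma's test and 0 reached an unadjusted p under 0.05.

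The regulators of metallothionein genes and the other targets of MTF1 showed no call. MTF1 itself averaged 5.99 ± 0.19 in manganese arrays and 5.96 ± 0.25 in control arrays (SD, n = 3 each), a difference of 0.03 (-0.33 to 0.39, limma adjusted p 0.957). Of 11 measured regulators 0 passed, with 1 at an unadjusted p under 0.05, and their median was -0.04, against 0.02 over all 13407 genes. EPAS1, which encodes the hypoxia-inducible subunit HIF-2 alpha, had the smallest p, at -0.62 (adjusted p 0.296), or -0.29 against control 2 alone. Its probe sets ranged from -0.62 to 0.09. USF2 and USF1, E-box factors that bind the MT1 and MT2 promoters, were at 0.28 and 0.22, while against control 2 alone USF2 was at 0.00038 and USF1 at -0.28. STAT3, which carries cytokine signals to these promoters, was at -0.16, or 0.05 against control 2 alone. NR3C1, the glucocorticoid receptor, and JAK2 lay below the filter.

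Of 11 measured MTF1 targets other than the metallothioneins 0 passed, with 1 at an unadjusted p under 0.05 and a median of 0.16. Against control 2 alone that median was 0.00059. The list includes SLC39A10, which MTF1 represses, so the median is not a measure of MTF1 activity. NDRG1 came closest, at 9.07 ± 0.04 in manganese arrays and 8.41 ± 0.14 in control arrays. Its groups did not overlap, and its change of 0.66 (0.40 to 0.91) had a limma adjusted p of 0.124. It was 0.51 against control 2 alone, and the other NDRG1 probe set was at -0.02 with all controls. SLC30A1, the zinc exporter of the plasma membrane and a standard MTF1 target, differed by 0.14 (-0.24 to 0.52, adjusted p 0.755), with 0.59 at its other probe set. SLC39A10, a zinc importer that MTF1 represses, differed by 0.25 (-0.18 to 0.67). CEBPA, a transcription factor, was at 0.36, SELENOH at -0.18 and SELENOW, another selenoprotein, at -0.22, none past the threshold. These 3 were at 0.15, -0.22 and -0.46, SLC30A1 at 0.33 and SLC39A10 at 0.59 against control 2 alone.

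Zinc and copper handling gave 0 calls among 21 and 13 measured genes, with 0 of 21 and 3 of 13 at an unadjusted p under 0.05, against 13.1% of all genes. The median of the zinc transporters was -0.03 and that of the copper genes 0.01, or 0.00065 and -0.18 against control 2 alone. The zinc transporters with the smallest p were SLC39A7, which releases zinc from the endoplasmic reticulum, at -0.29 (adjusted p 0.417), and SLC30A9, a mitochondrial zinc exporter, at 0.30. SLC39A7 was at -0.32 and SLC30A9 at 0.56 against control 2 alone. SLC30A5 and SLC30A7, which load the secretory pathway with zinc, were at 0.28 and -0.26, or 0.04 and -0.09 against control 2 alone, and probe sets of SLC30A5 ranged from -0.35 to 0.29. SLC30A10, the manganese exporter of this family, differed by -0.03 (-0.32 to 0.26). Among the copper genes COX19 at -0.48 and COX11 at 0.46 serve copper delivery to cytochrome oxidase, COMMD1 at -0.55 regulates copper export, and ATP7B at -0.32 is a copper pump, with adjusted p of 0.305 to 0.411. COX19 was at -0.37, COX11 at 0.22, COMMD1 at -0.18 and ATP7B at -0.21 against control 2 alone. Probe sets of COX19 ranged from -0.48 to 0.04 and those of COX11 from -0.01 to 0.52.

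Stress genes that metals induce in many cells also gave 0 calls among 14 measured, with a median of 0.04. At an unadjusted p under 0.05 there were 6 of the 14, against 13.1% of all genes. NQO1, a quinone reductase controlled by NRF2, averaged 8.94 ± 0.14 in manganese arrays and 8.25 ± 0.25 in control arrays. Its difference of 0.69 (0.34 to 1.04) did not pass (adjusted p 0.197) and was 0.41 against control 2 alone. The heat shock genes HSPA1B, HSPA8 and HSPH1 were at -0.36, -0.50 and -0.46, with adjusted p of 0.326 to 0.354. With control 2 as the only control they were at -0.52, -0.19 and -0.18. Probe sets of HSPA8 ranged from -0.74 to -0.50 and those of HSPH1 from -1.19 to -0.46. HMOX1, which encodes haem oxygenase and is induced by cadmium, was at 0.30 (0.01 to 0.60, adjusted p 0.389), or 0.12 against control 2 alone.

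The genes whose pattern over the 6 arrays was most like that of MT3 at 11753872_x_at included 3 histone genes. Likeness was the Euclidean distance between log2 profiles centred on their means, over 13407 genes with 1 probe set each. MT3 11753872_x_at lay at 2.20 from a flat profile. The nearest genes were H2BC13 at 0.47, which passed the level filter on the manganese arrays alone, the water and glycerol channel gene AQP10 at 0.49, the small Cajal body RNA SCARNA20 at 0.52, and H2BC9 at 0.52 and H2AC20 at 0.57. In all 5 the manganese arrays lay above the controls, and the gap between groups makes up most of the MT3 profile. Control 3 was the highest control in MT3 11753872_x_at and H2BC13, and control 2 in AQP10, SCARNA20, H2BC9 and H2AC20. Likeness to the unmarked MT3 probe set was not measured. For MT2A 11753900_x_at, at 0.25 from a flat profile, the nearest were NINJ2, TSPAN10, LRRC26, DACT2 and GSTA1 at 0.06 to 0.07. Control 1 was the lowest array in all 5, as in MT2A.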

How the data were processed

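Total RNA, 6 µg per sample, was labelled and hybridised to 1-colour Affymetrix arrays, per the labels' protocols. The authors deposited 49395 probe sets as log2 values. The submitters' processing notes name RMA and Expression Console, whose version is not given in the sources used here. RMA removes a shift shared by most genes. The platform annotation named genes: 44988 probe sets had 1 symbol, 1832 several and 2473 none, and 102 controls were kept for quality checks only. Precision is limited by the number of arrays.

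Groups were compared with lmFit and eBayes of limma 3.58.1 under R 4.3.3 (group as the only term, two-sided), adjusted by Benjamini-Hochberg over the 29871 probe sets above the filter, with a threshold of 0.05. Probe sets below it were fitted without the filter. For lists, the probe set with the highest mean stood for a gene. All metallothionein probe sets are named, up to 4 genes per list (calls first, then by p), 4 neighbours on each side (1 is not reported here) and 5 genes by likeness. MTF1, SLC30A1, SLC39A10, SLC30A10 and HMOX1 were added for their role after their values were seen. The members and lists were chosen with earlier results of these data known. Alternatives changed the filter, unit, variance model, weights, scaling, replicate block, controls and single arrays.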

Additional observations from a re-analysis of the deposited data

How the results depend on the processing

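The increase of MT3 was positive under every alternative run, but its call was not kept under all of them. Every manganese array lay above every control at both probe sets, so leaving out or reweighting arrays could not turn the sign. The fit against control 2 alone has 1 control array and takes its spread from the manganese arrays. At 11722608_at it was 1.38 with the replicate number as a block (adjusted p 0.136) and 1.03 against control 2 alone (adjusted p 0.274). Leaving out 1 array gave 1.29 to 1.55. At 11753872_x_at it was 1.75 with the replicate block (adjusted p 0.0671) and 1.75 against control 2 alone (adjusted p 0.0873), and leaving out 1 array gave 1.61 to 1.89. Same-numbered arrays deviated from their group means with correlations of -0.29, 0.14 and -0.29, against -0.38 to 0.48 for the other pairs. With 3 arrays per group these values cannot show whether same-numbered cultures were handled together. The count of metallothionein probe sets past the threshold, 2 of 13, was 1 with 1 probe set per gene, 5 with array weights, 0 with the replicate block, 0 against control 2 alone and 0 to 2 when 1 array was left out. The 5 were both of MT3, both of MT1F (-0.52 and -0.32) and MT1X 11757581_x_at (-0.32). The weights ran from 0.178 for control 1 to 5.16 for control 3. Over all probe sets the count of 32 was 19 with 1 probe set per gene, 5364 with array weights, 75 with housekeeping centring (61 higher and 14 lower), 15 with the replicate block, 7 against control 2 alone and 0 to 75 when 1 array was left out, with 0 without manganese 2 (2343 at an unadjusted p under 0.05), 7 without manganese 1, 12 without manganese 3, 13 without control 3 and 75 without control 2.

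Members that did not pass turned sign only near 0. MT1E turned to -0.0045 without control 1 and -0.012 against control 2 alone, and lay at -0.0064 to 0.061 when 1 array was left out. MT1G 11717385_a_at turned to 0.013 with housekeeping centring and lay at -0.081 to 0.0017 when 1 array was left out. MT1G 11717387_x_at turned to 0.039 with that centring and lay at -0.10 to 0.072 when 1 array was left out. MT2A 11753900_x_at turned to -0.067 with array weights and -0.0025 against control 2 alone, where 11758729_x_at turned to -0.014. Leaving out 1 array put 11753900_x_at at -0.041 to 0.11. The median of the MTF1 targets moved to 0.00059 and that of the copper genes to -0.18 against control 2 alone. The causes were not tested.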
